A study of Mus musculus with 2 samples.

Results

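The shallow hepatocyte-like droplets made up most kept barcodes of a single-cell RNA data set of the mouse liver, and each carried few transcripts that were rich in hepatocyte messages. A barcode belonged to the set when it held at least 500 and fewer than 3000 unique molecular identifiers (UMIs, each the count of 1 captured transcript), at least 200 genes, no more than 25% of its UMIs from mitochondrially encoded genes, and at least 5% from the summed transcripts of Apoa1, Apoa2, Apoc3, Ttr, Serpina1c, Trf, Fgb, Ahsg, Hp and Fabp1. Of 32316 barcodes, 17705 passed the same limits on genes and mitochondrial share with 500 UMIs or more, and 11632 of these (65.7%) were members. All the cutoffs rest on measured values, so depth, mitochondrial share and the 10 named transcripts describe the set and are not results about it.

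The study profiled liver cells of 1 Cebpa knockout and 1 Cebpa wild-type sample, both from mice fed a fatty-liver-promoting diet (40% HFCFD) for 2 weeks. CEBPA is a transcription factor of mature hepatocytes, and the knockout was made with a Cre driven by the albumin promoter, which is active in hepatocytes, on a floxed Cebpa background. The sources used here do not say whether the constitutive or the inducible Cre was used for these cells, or how many mice went into a sample. The livers were perfused and digested in place, the cells were enriched on Percoll, and each sample was loaded in 1 lane aimed at up to 6000 cells.

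The joint count table tells its 2 libraries apart only by a barcode suffix, and nothing read here ties a suffix to a genotype. The libraries are therefore called suffix 1 and suffix 2, no genotypes are compared, and with 1 sample per genotype no test was possible. Every value below sets the members against the deep hepatocytes of the same library, which met the same limits on genes, mitochondrial share and hepatocyte transcripts but held at least 5000 UMIs. Intervals are exact 95% intervals (Poisson for UMI sums, Clopper-Pearson for shares), and both kinds cover counting error only.

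Hepatocytes make most plasma proteins and carry out urea synthesis, gluconeogenesis and the oxidation of drugs and fats. Along the liver lobule they divide the work: periportal cells favour ureagenesis and gluconeogenesis, and pericentral cells favour glutamine synthesis and cytochrome P450 reactions. A droplet captures whatever RNA it encloses, which may be a whole cell, a damaged cell, a piece of cytoplasm, a nucleus or the free RNA of the suspension, and long unspliced or nuclear noncoding RNAs are usually held in the nucleus.

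Suffix 1 held 8372 members, which made up 72.1% (71.2 to 72.9) of its kept barcodes. Suffix 2 held 3260, or 53.5% (52.3 to 54.8). Among kept barcodes of fewer than 3000 UMIs the share of members was 96.9% and 91.8%, so few shallow barcodes of any other kind passed the limits. The members' median was 1110 UMIs and 542 genes in suffix 1, and 1114 UMIs and 523 genes in suffix 2. The deep hepatocytes numbered 674 and 579, with medians of 21702 and 12650 UMIs and of 3828 and 2773 genes. Members carried a median mitochondrial share of 1.68% and 3.48%, against 14.7% and 14.6% in the deep hepatocytes (suffix 1 first, as in all pairs of values below). The 10 genes of the rule took a median of 11.5% and 12.8% of a member's UMIs, and 8.23% and 8.63% of a deep hepatocyte's.

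The label was checked on hepatocyte genes that the rule did not use. Alb (albumin), Apob (the structural protein of very low density lipoprotein), Serpina1a, Cps1 and Fgg together held 39293 and 45970 CPM (UMIs per 1e+06 UMIs of the summed droplets) in the members, and 44297 and 49985 CPM in the deep hepatocytes. Albumin alone was found in every member. Lymphocyte-marked droplets also held hepatocyte transcripts (below), so these markers show which transcripts were enclosed and do not show that a member was an intact hepatocyte.

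Markers of other cells summed to little among the members. T cell markers held 13.9 and 24.4 CPM, B cell markers 59.5 and 38.6 CPM, and cholangiocyte markers 2.996 and 7.35 CPM. Kupffer cell or macrophage markers held 141 and 255 CPM against 50.8 and 191 CPM in the deep hepatocytes, and neutrophil markers 181 and 230 CPM against 55.5 and 19.9 CPM. Stellate cell markers stood at 38.2 and 111.6 CPM against 2.66 and 8.89 CPM in the deep hepatocytes, and endothelial markers at 41.5 and 106 CPM against 15.9 and 35.5 CPM. The 16 endothelial, stellate and biliary genes listed for this purpose all stayed below the 100 CPM that a gene needed in either sum to enter the comparison. Erythroid markers were the exception, at 4528 and 4672 CPM against 958 and 662 CPM. Libraries shared 81 barcode sequences, 10 of them between members, and no doublet caller was run.

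Barcodes just inside and just outside the limits are given as a description. In suffix 1, the 56 members within 100 UMIs below the depth limit held 20669 CPM of Alb, and the 50 hepatocyte-gated barcodes within 100 UMIs above it held 23906 CPM. In suffix 2 the same strips held 39 and 28 barcodes with 39807 and 35250 CPM. A hepatocyte share of 5 to 6% was met by 80 and 86 members, and a share of 4 to 5% by 104 and 94 excluded barcodes. The leukocyte transcript Ptprc stood at 1069 and 430 CPM in the first of these strips and at 1690 and 728 CPM in the second. At the mitochondrial limit, 66 and 18 members at 24 to 25% faced 66 and 12 barcodes at 25 to 26%.

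**Figure D1:**
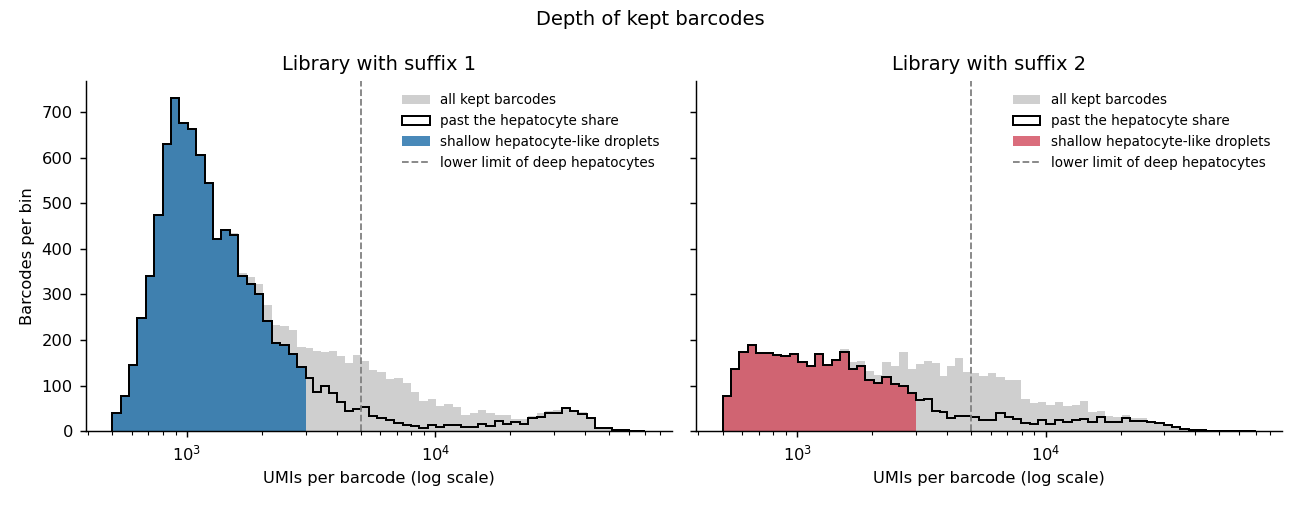
Number of barcodes (y axis) by UMIs per barcode (log x axis, bins of nearly equal log width) in each library; the members fill the range from 500 to under 3000 UMIs and the deep hepatocytes the range from 5000. Members number 8372 in suffix 1 and 3260 in suffix 2, and deep hepatocytes 674 and 579.

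The gene named in the study's design was low in one library and present in the other. Cebpa (chr7:35119293-35121928, plus strand, GRCm38) gave 10 UMIs in all suffix 1 members, or 0.936 CPM (0.449 to 1.72), and 1.23 CPM in that library's deep hepatocytes. In suffix 2 it gave 308 UMIs, or 73.0 CPM (65.1 to 81.6), against 109.5 CPM (102.6 to 116.8) in the deep hepatocytes. Cebpa was thus lower in suffix 1 than in suffix 2 in shallow droplets and deep hepatocytes alike, and no genotype was assigned from it. Spp1, which encodes the secreted protein osteopontin, held 330 CPM (319 to 341) in suffix 1 members and 907 CPM (891 to 922) in the deep hepatocytes. Its log2 ratio of -1.46 in suffix 1 became -3.04 at a mitochondrial limit of 10% and 1.59 without droplets holding UMIs of other cells, where 40 deep hepatocytes remained. In suffix 2 the values were 78.9 and 73.7 CPM. The top 1% of suffix 1 deep hepatocytes held 34.3% of that set's Spp1 UMIs. With droplets thinned at random to 500 UMIs, Spp1 was found in 16.2% of suffix 1 members and 17.4% of suffix 1 deep hepatocytes.

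For the comparison across genes, the members' UMIs were summed per library, as were the deep hepatocytes' UMIs, and log2 ratios of CPM were taken with 3 UMIs added to each sum. In suffix 1, 71 of 1359 genes (5.22%) were at least 2-fold higher in the members and 96 (7.06%) at least 2-fold lower. In suffix 2, 33 of 1229 genes (2.69%) were higher and 54 (4.39%) lower. Of 1158 genes compared in both libraries, 17 (1.47%) were higher in both and 40 (3.45%) lower in both, and none went past 2-fold in opposite directions. The log2 ratios of the libraries correlated across these genes with r = 0.878, or 0.867 without mitochondrially encoded genes, as a description over genes that share the same suspension method. The median ratio of all genes was 0.25 and 0.05 on the log2 scale, which is the level against which a gene's own ratio should be read.

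These counts depend on the total that a gene is scaled to. With ratios centred on their median, suffix 1 had 25 genes higher and 157 lower, and with mitochondrially encoded genes left out of the total it had 32 higher and 180 lower. In suffix 2 the latter scaling gave 30 higher and 93 lower. Leaving the mitochondrial genes out matters because they took 153626 and 140052 CPM of the deep hepatocytes' UMIs but 34168 and 54103 CPM of the members' UMIs, a gap to which the rule itself contributes through its mitochondrial limit.

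**Figure D2:**
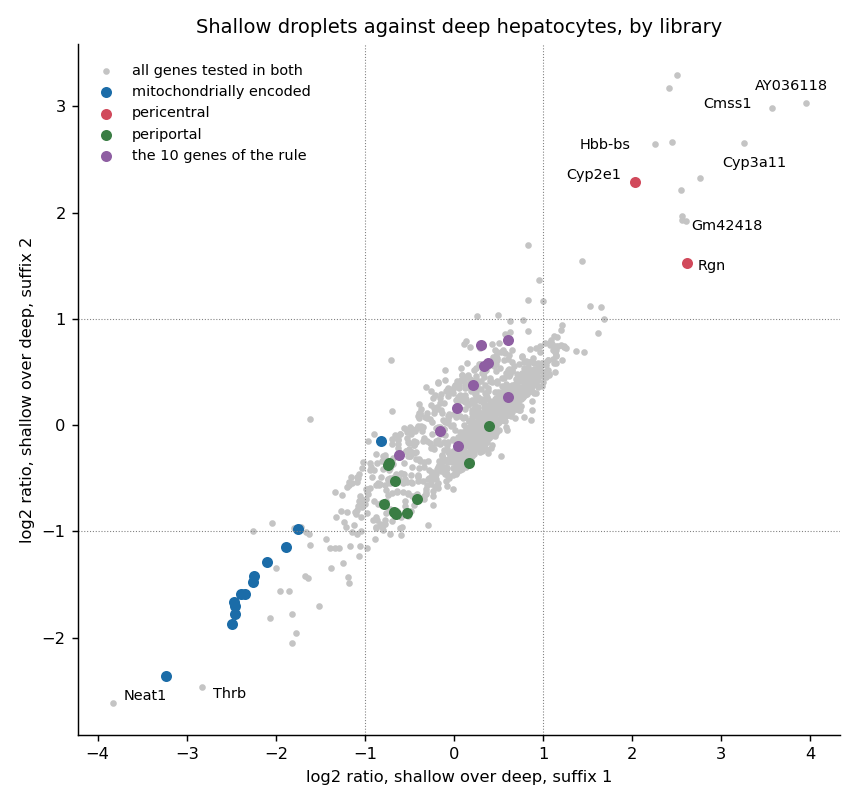
Log2 ratio of members over deep hepatocytes for each of the 1158 genes compared in both libraries, suffix 1 on the x axis and suffix 2 on the y axis; dotted lines mark 2-fold. AY036118 and Cmss1 lie farthest to the upper right (log2 ratios of 3.95 and 3.58 in suffix 1), and Neat1 farthest to the lower left (-3.83 and -2.62).

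The transcript with the highest ratio in suffix 1 came from a ribosomal RNA locus. AY036118 stood at 1814 CPM in suffix 1 members against 117 CPM in the deep hepatocytes, and at 1362 against 166 CPM in suffix 2. Its log2 ratios were 3.95 and 3.04. Gm42418, annotated on the other strand of the same locus, was the more abundant by far, at 36978 against 6262 CPM and at 31399 against 8008 CPM, with log2 ratios of 2.56 and 1.97. Both are annotated as long noncoding RNAs that overlap the ribosomal RNA gene CT010467.1 on chr17 of GRCm38, Gm42418 at 39846958-39848788 on the plus strand and AY036118 at 39847113-39848035 on the minus strand.

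All 923 bases of AY036118 occur as the reverse complement inside the 1831 bases of Gm42418, from base 156. The first 60 bases of AY036118 and the same stretch of Gm42418, both at chr17:39847976-39848035, are shown from the GRCm38 sequence in 5′ to 3′ direction because within the overlap only strand tells the genes apart:
AY036118: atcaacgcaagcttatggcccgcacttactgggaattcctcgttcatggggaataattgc
Gm42418: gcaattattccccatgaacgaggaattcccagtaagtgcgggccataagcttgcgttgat
Their values are therefore uncertain as measures of separate genes. Leaving both out of the total raises the ratio of every gene. That all 17 of the higher genes then stayed higher in both libraries follows from the scaling, and nothing is read from it.

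Protein-coding genes with a high ratio included several whose reads may come from more than 1 annotated feature. Cmss1 (chr16:57302000-57606864, minus strand), which encodes a protein of small ribosomal subunit assembly, held 2671 CPM (2640 to 2702) in suffix 1 members and 224 CPM (216 to 232) in the deep hepatocytes. In suffix 2 it held 2284 CPM (2239 to 2330) and 288 CPM (276 to 299), and its log2 ratios were 3.58 and 2.99. The gene overlaps Filip1l on the other strand. Camk1d, a calcium and calmodulin dependent kinase, stood at 1306 against 214 CPM and at 1272 against 335 CPM. The antisense RNA Gm15564, which overlaps Parp9 and Kpna1, stood at 116 against 19.7 CPM and at 117 against 25.04 CPM. Cdk8, a kinase of the Mediator complex, and Lars2, the mitochondrial leucyl-tRNA synthetase, were also higher in both libraries, the first at 542 against 91.5 CPM and 354 against 92.9 CPM, and the second at 630 against 219 CPM and 604 against 278 CPM. Gm15564 and Cdk8 reached 100 CPM only in the members.

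Transcripts of pericentral metabolism formed the next group. Cyp2e1, the ethanol-oxidising P450, held 1298 CPM (1277 to 1320) in suffix 1 members against 317 CPM (308 to 326) in the deep hepatocytes. In suffix 2 it held 1537 CPM (1500 to 1575) against 315 CPM (304 to 328). The log2 ratios were 2.03 and 2.28. Rgn (regucalcin, a lactonase of ascorbate synthesis) stood at 1160 against 189 CPM and at 756 against 263 CPM. Of 12 listed pericentral genes, 3 reached 100 CPM in suffix 1 and 5 in suffix 2, and each of those was past 2-fold higher. Among all genes, 5.22% and 2.69% were past 2-fold higher. Glul in suffix 1 and Oat, Lect2 and Gulo in suffix 2 reached 100 CPM only in the members, so for them the filter itself favoured a high ratio. Nothing is read from the count or from the medians. Glul, glutamine synthetase, was the third in suffix 1 at 212.5 against 53.6 CPM, and Oat, Lect2 and Gulo were the others in suffix 2, with log2 ratios of 1.93, 2.67 and 1.97. The summed 12 genes were 4.86-fold (4.75 to 4.98) and 4.04-fold (3.92 to 4.17) above the deep hepatocytes. The size depended on which droplets were compared: between members and deep hepatocytes of up to 10% mitochondrial UMIs the log2 ratio of the sum was 1.09 and 1.26, and without droplets holding at least 2 UMIs of other cells the median of the compared genes in suffix 1 was -0.23 against 2.03, with 1.77 against 1.97 in suffix 2.

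Periportal genes leaned the other way without passing 2-fold. None of 10 compared in either library was past 2-fold, and the medians were -0.65 and -0.61 on the log2 scale, under the median of all genes in each library. Of all genes, 7.06% and 4.39% were past 2-fold lower. Both periportal medians kept their sign in 15 of 16 alternative settings. They were 0.48 and 0.19 with the mean profile of the lymphocyte droplets subtracted, which is no measure of free RNA (below). Cyp2f2, a periportal P450, held 1208 against 1905 CPM and 793 against 1141 CPM. Pck1, which commits carbon to gluconeogenesis, held 1203 against 1604 CPM and 989 against 1601 CPM.

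The P450 list did not move as one. Cyp3a11, the main drug-metabolising P450, had the highest ratio of them in suffix 1, at 137.5 CPM (130.6 to 144.7) in the members against 14.2 CPM (12.3 to 16.2) in the deep hepatocytes, and stood at 292 CPM (276 to 309) against 46.2 CPM (41.8 to 51.0) in suffix 2. Cyp2c29 stood at 294 against 53.5 CPM and at 372 against 58.5 CPM. With Cyp2e1, these made 3 of 16 compared P450 genes past 2-fold higher in suffix 1 (5.22% of all genes) and, with Cyp2c50, 4 of 16 in suffix 2 (2.69% of all genes). Cyp3a11 and Cyp2c29 in both libraries and Cyp2c50 in suffix 2 reached 100 CPM only in the members. The oxysterol hydroxylase Cyp7b1 was past 2-fold lower in suffix 1, at 328 against 871 CPM. The list's median was -0.16 in suffix 1 and 0.55 in suffix 2, but the suffix 1 median changed sign in 6 of 16 alternative settings, reaching 0.67 at a mitochondrial limit of 10% and 0.85 without droplets holding UMIs of other cells. The suffix 2 median kept its sign in all 16. Near-identical family members can share reads, so values of single Cyp2c and Cyp3a genes are uncertain.

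Of the remaining genes higher in both libraries, Pon1, a lactonase carried on high density lipoprotein, stood at 237 against 87.0 CPM and at 405 against 139 CPM, reaching 100 CPM in suffix 1 only in the members. Akr1c6, a steroid dehydrogenase, stood at 2363 against 749 CPM and at 1358 against 628 CPM. Major urinary protein genes, which encode pheromone carriers secreted by hepatocytes, were above the deep hepatocytes at 3 of 3 and 4 of 4 compared genes, with medians of 1.02 and 0.84. Among all genes 907 of 1359 and 662 of 1229 were above the deep hepatocytes, and Mup11 reached 100 CPM only in the members. Mup3 and Mup21 were past 2-fold in suffix 1, and Mup11, at 168 against 22.0 CPM, in suffix 2. The Mup genes are close copies of each other, and how reads that match several were assigned was not given.

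Globin transcripts were high in the sums but sat in few droplets. Hbb-bs, an adult beta-globin of red blood cells, held 2647 CPM in suffix 1 members against 553 CPM in the deep hepatocytes, and 2708 against 431 CPM in suffix 2. Hba-a1 and Hba-a2, the near-identical alpha-globin genes, had log2 ratios of 2.51 and 2.42 in suffix 1 and of 3.29 and 3.17 in suffix 2. Only 82 members of suffix 1 and 37 of suffix 2 gave at least 5% of their UMIs to haemoglobin, yet these held 89.9% and 94.7% of all haemoglobin UMIs of the members. With such droplets left out, the other 14 higher genes stayed past 2-fold in both libraries. The 3 globin genes did not, an outcome that the choice of droplets by haemoglobin favoured. Between low-mitochondrial members and deep hepatocytes (up to 10% of UMIs) the log2 ratio of Hbb-bs was -0.05 and 1.51, so in suffix 1 its excess was absent there. The neutrophil transcript S100a9 was past 2-fold in suffix 2, at 110 against 10.5 CPM, where it reached 100 CPM only in the members, and stood at 89.3 against 28.5 CPM in suffix 1.

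Under-represented transcripts included a nuclear noncoding RNA and several regulators. Neat1, the scaffold RNA of nuclear paraspeckles (chr19:5824708-5845478, minus strand), held 18.4 CPM (15.9 to 21.1) in suffix 1 members against 265 CPM (256 to 273) in the deep hepatocytes, and 34.1 CPM (28.8 to 40.2) against 214 CPM (204 to 224) in suffix 2. Its log2 ratios of -3.83 and -2.62 were the lowest of any gene compared. Thrb, the thyroid hormone receptor beta, stood at 18.5 against 134 CPM and at 19.9 against 113 CPM. Zbtb20, a zinc finger repressor of the liver, stood at 162 against 836 CPM and at 161 against 480 CPM, and Dpyd, which starts pyrimidine breakdown, at 187 against 661 CPM and 193 against 661 CPM. Fam214a, Sorbs2, Rhobtb1, Nfia, Mtss1 and Ptprd completed the 10 lowest genes by mean ratio, with mitochondrially encoded genes left out of the ranking. Apart from Zbtb20 and Dpyd, these reached 100 CPM only in the deep hepatocytes.

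Beside the 11 mitochondrially encoded genes, 29 genes were lower in both libraries. They included the fatty acid sensor Ppara (66 against 188 CPM and 52 against 171 CPM), the ATP citrate lyase Acly (152 against 342 CPM and 133 against 294 CPM), the sterol sensor Insig1, the lipid phosphatase Lpin1 and the nuclear factor Nfib. Ppara, Insig1 and Nfib reached 100 CPM only in the deep hepatocytes, so for them the filter itself favoured a low ratio. Malat1, another nuclear noncoding RNA, did not share Neat1's pattern in both libraries: it held 664 against 2044 CPM in suffix 1 and 1719 against 1650 CPM in suffix 2.

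These lower calls depended on which deep hepatocytes served as the reference. With the mitochondrial limit set at 10% for members and deep hepatocytes alike, 2 genes were lower in both libraries and neither was among the 40. Of the 17 higher genes, 12 stayed past 2-fold in both. The 40 include the mitochondrially encoded genes, whose levels that limit itself bounds, but the 29 other lower genes lost their calls too. Deep hepatocytes with up to 10% mitochondrial UMIs numbered 210 and 202, with median depths of 6387 and 7754 UMIs, and those above 10% numbered 464 and 377, with median depths of 28287 and 16563 UMIs. Neat1 stood at 119 and 52.4 CPM in the first group and at 288 and 266 CPM in the second. Against the first group the low-mitochondrial members had a log2 ratio for Neat1 of -2.69 and -0.66, and for Zbtb20 of -1.61 and -0.40. The direction of both genes thus stayed the same, and in suffix 2 the size fell under 2-fold.

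Ratios of higher genes were also taken under the 10% limit. Gm42418 had log2 ratios of 1.75 and 1.51 between low-mitochondrial sets, against 2.68 and 1.98 between sets above 10%. Cmss1 had 1.89 and 1.91 against 4.12 and 3.54. Cyp2e1 had 1.90 and 1.83 against 2.12 and 2.33, and Lars2 had 1.38 and 1.18 against 1.57 and 1.03. Rgn, which did not stay past 2-fold, went from 0.50 and 0.51 between low-mitochondrial sets to 3.26 and 2.01, since it held 843 and 541 CPM in the low-mitochondrial deep hepatocytes and 82.4 and 172 CPM in the others. Spp1 in suffix 1 stood at 2699 CPM in the low-mitochondrial deep hepatocytes, 614 CPM in the others and 329 CPM in the low-mitochondrial members.

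Droplets holding UMIs of other cells were frequent in both sets. Such droplets had at least 2 UMIs of the immune and erythroid genes, or at least 2 of the endothelial, stellate and biliary genes. They made up 30.2% and 26.1% of the members, and 94.1% and 80.7% of the deep hepatocytes, whose greater depth alone raises that share. With all such droplets left out of both sets, 5840 and 2409 members and 40 and 112 deep hepatocytes remained. Then 9 of the 17 higher genes and 1 of the 40 lower genes stayed past 2-fold in both libraries. Among the higher genes lost were Hba-a1, Hba-a2 and Hbb-bs, which the filter itself counts, so their loss was favoured by construction. Depth and mitochondrial share moved together in the deep hepatocytes, and the separate parts of depth, mitochondrial share and UMIs of other cells in the lower calls were not tested.

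By function, most hepatocyte lists lay near the median of all genes. No compared gene of the plasma protein list (34 and 33 genes, medians -0.01 and -0.02) or of the apolipoproteins outside the rule (11 and 11, medians 0.02 and 0.23) was past 2-fold, where in all 5.22% and 2.69% of genes were higher and 7.06% and 4.39% lower. Signs this close to 0 flip with the scaling, and at a mitochondrial limit of 10% the medians were 0.56 and 0.42 for plasma proteins and 0.59 and 0.57 for apolipoproteins. No gene of the nuclear-encoded respiratory chain (36 and 36, medians 0.25 and 0.07) or among 80 ribosomal protein genes (0.24 and -0.19) was past 2-fold either, nor was any in the urea cycle (0.27 and -0.25) or amino acid catabolism (0.39 and -0.22). In those last lists the sign of the median differed between the libraries under all 5 scalings, but at a mitochondrial limit of 10% the medians were below 0 in both libraries (urea cycle -0.06 and -0.30, amino acid catabolism -0.13 and -0.42).

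Lipid synthesis and transcription factor lists had medians below 0 against all deep hepatocytes. Of 9 lipid and cholesterol synthesis genes, Acly, Acaca, Fasn, Elovl6 and Dgat2 were past 2-fold lower in suffix 1, Fdps was past 2-fold higher, and Acly alone was lower in suffix 2 (of all genes, 7.06% were lower in suffix 1 and 4.39% in suffix 2). Their medians were -1.02 and -0.35, but -0.23 and 0.11 at a mitochondrial limit of 10%, where the summed list was higher in the members by 0.57 and 0.64 on the log2 scale. Scd1, the desaturase that makes oleate and the most abundant of them, held 6063 against 9235 CPM and 9694 against 10272 CPM. Of 18 hepatocyte transcription factors only 7 and 6 were compared, with medians of -0.73 and -0.60, and Ppara was past 2-fold lower in both libraries and Onecut1 in suffix 1. Ppara in both libraries, Onecut1 in suffix 1 and Hnf4a in suffix 2 reached 100 CPM only in the deep hepatocytes, and of all genes 7.06% and 4.39% were lower, so nothing is read from the medians or the calls. Hnf4a, a master regulator of hepatocyte identity, held 117 against 203 CPM and 99.3 against 198 CPM. Cebpb ran the other way, at 337 against 182 CPM and 236 against 152 CPM.

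Fat oxidation genes had list medians of 0.49 and 0.29 that became -0.12 and -0.01 at a mitochondrial limit of 10%. Acadl, Acaa2, Etfb and Acaa1b, enzymes of beta oxidation and its electron transfer, were past 2-fold higher in suffix 1, and Cpt1a, the carnitine transferase that admits fatty acids to mitochondria, and Ppara were past 2-fold lower. These were 4 and 2 of 17 compared genes, where 5.22% of all genes were higher and 7.06% lower. In suffix 2 only Ppara was past 2-fold. Endoplasmic reticulum chaperones had medians of -0.45 and -0.28, which turned to 0.29 and 0.23 at a mitochondrial limit of 10%, and P4hb, a protein disulfide isomerase, was the 1 gene of 12 past 2-fold, at 216 against 444 CPM in suffix 1, where 7.06% of all genes were lower.

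Lists for the acute phase, antioxidant proteins, transporters and glucose metabolism gave no gene past 2-fold the same way in both libraries, where 1.47% of all genes were higher and 3.45% lower. In suffix 2 the acute phase transcripts Saa2 and Fgl1 were past 2-fold higher (137 against 68.4 CPM and 121 against 54.5 CPM), reaching 100 CPM only in the members, and in suffix 1 Crp, C-reactive protein, was past 2-fold lower (135 against 285 CPM). The peroxide-reducing Prdx1 and the glutathione transferase Gsta3 were past 2-fold higher in suffix 1 and the selenium carrier Selenop past 2-fold lower, at 2363 against 5347 CPM. Among transporters, the organic anion carrier Slco1b2 stood at 204 against 63.2 CPM and at 484 against 243 CPM, just short of 2-fold in suffix 2, and Abcc2, a bile canaliculus pump, at 101.3 against 221.5 CPM and at 103 against 199 CPM. In suffix 2, 1 other transporter gene was past 2-fold higher, with a log2 ratio of 1.03, where 2.69% of all genes were higher. Glucose-6-phosphatase G6pc and the glucose carrier Slc2a2 were past 2-fold lower in suffix 1.

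**Figure D3:**
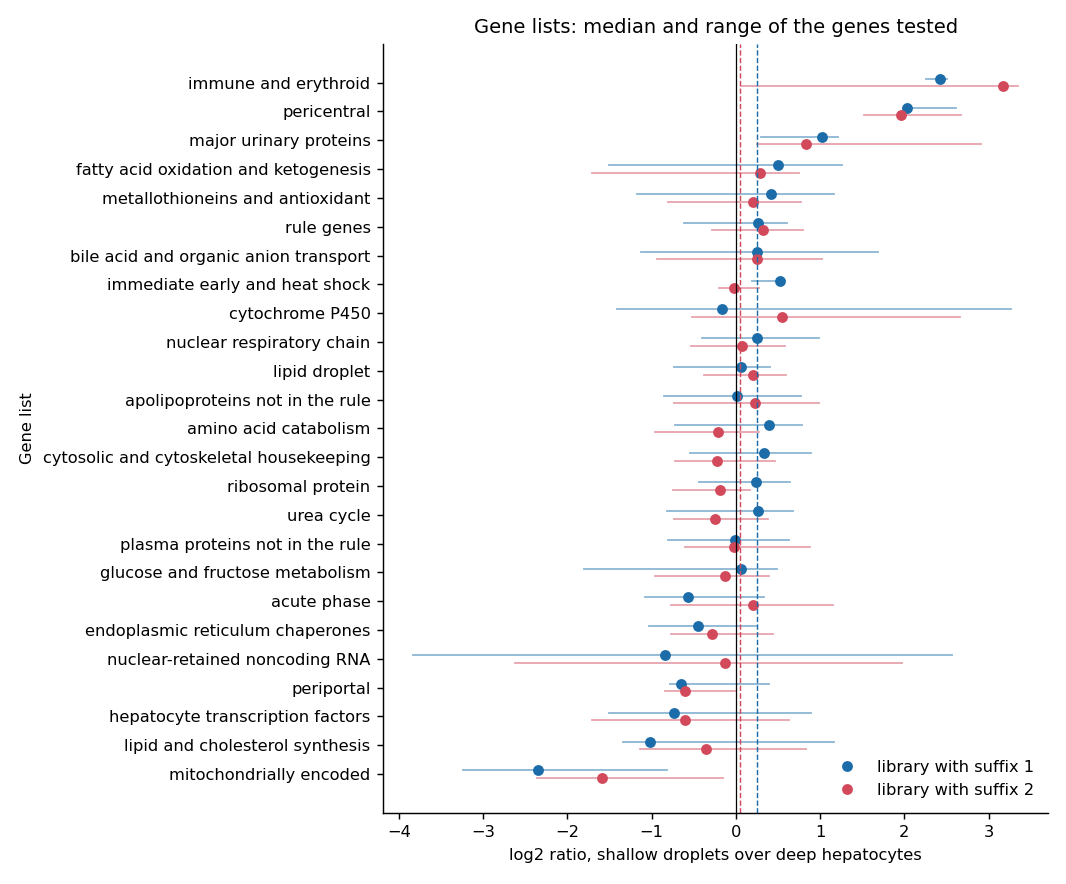
Median log2 ratio of members over deep hepatocytes for each gene list (points, 1 colour per library) with the range of its compared genes (thin lines); dashed lines mark the median of all compared genes in each library. The pericentral medians are 2.03 and 1.97, the mitochondrially encoded medians -2.35 and -1.59 (a quantity the rule limits), and the plasma protein medians -0.01 and -0.02. Some pericentral genes passed the 100 CPM filter only through the members, which favoured high medians.

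Median ratios differed with gene length. Over 1145 genes with an annotation outside the mitochondrial genome, the fifth with the shortest genomic span had median log2 ratios of 0.31 and 0.07, and the fifth with the longest, from 36474 bases, had -0.25 and -0.25. Split in the same manner by longest annotated transcript, the medians ran from 0.41 and 0.12 to -0.31 and -0.31. Genes higher in both libraries had a median span of 22027 bases and the 29 lower in both 80571 bases, against 12946 bases over all 1145. The study's sources do not state whether intronic reads were counted.

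Among the members, transcripts did not scale alike with droplet depth. Between members of fewer than 1000 UMIs and members of 2000 UMIs or more, the mean of all UMIs per droplet increased 2.95-fold in suffix 1 and 3.31-fold in suffix 2. Alb increased only 1.72-fold and 2.83-fold, Apob 1.39-fold and 1.76-fold, Gm42418 1.86-fold and 2.30-fold, and Cyp3a11 1.17-fold and 1.69-fold. Gapdh, a cytosolic enzyme of glycolysis, increased faster than the total, 4.87-fold and 4.48-fold.

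Whole lists split the same way. P450 transcripts increased 1.67-fold and 2.04-fold and plasma protein transcripts 1.81-fold and 2.90-fold, all less than the total. Urea cycle transcripts increased 4.12-fold and 4.04-fold, amino acid catabolism 4.32-fold and 4.39-fold, and ribosomal proteins 3.901-fold and 4.25-fold. In CPM, Alb of suffix 1 stood at 42780, 31498 and 24905 in the 3 depth bins of the members (from 500, 1000 and 2000 UMIs), at 20457 in hepatocyte-gated barcodes from 3000 to under 5000 UMIs, and at 37213 in the deep hepatocytes. In suffix 2 the same series read 41734, 35748, 35692, 32651 and 40945 CPM, with smaller steps. The deepest bin thus did not continue the slope of the others. Since depth defines the bins and each bin's CPM share 1 total, these are descriptions.

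**Figure D4:**
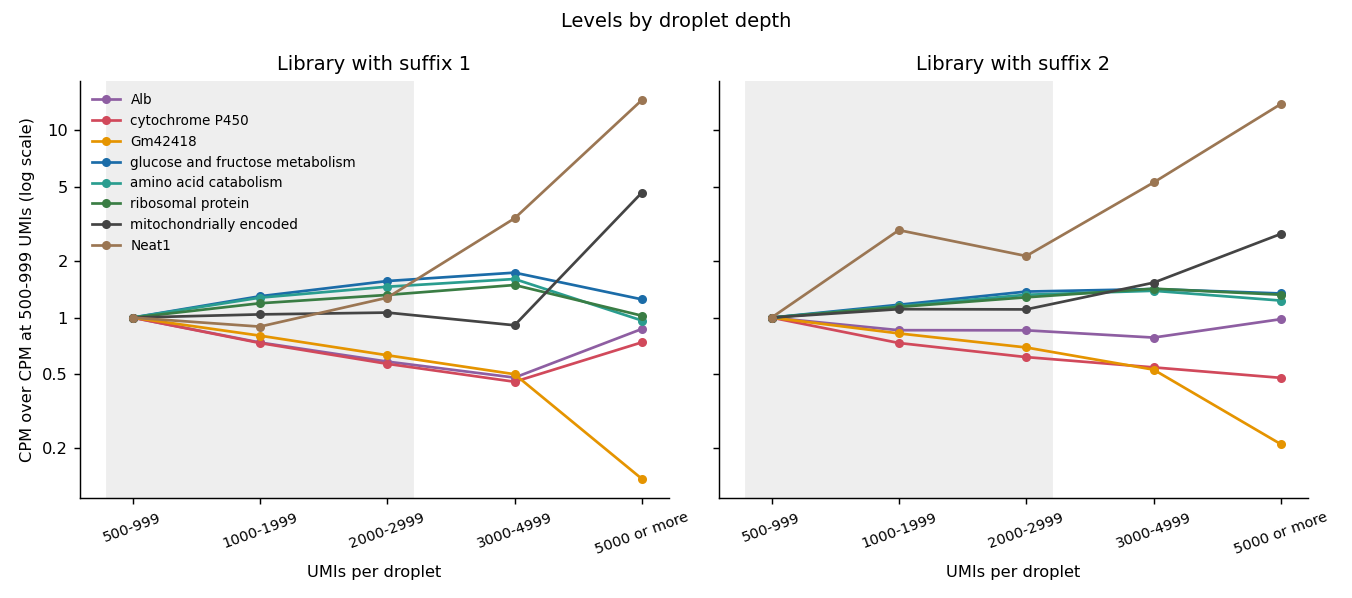
CPM of chosen transcripts and lists in each depth bin of hepatocyte-gated droplets (x axis, UMIs per droplet) divided by their CPM in the shallowest bin (log y axis), for suffix 1 and suffix 2; grey marks the members. Gm42418 goes from 45516 to 6262 CPM in suffix 1 and from 38002 to 8008 CPM in suffix 2, whereas Neat1 goes from 18.2 to 265 CPM and from 15.4 to 214 CPM.

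Hepatocyte transcripts were also present in droplets that enclosed lymphocytes. Lymphocyte droplets, chosen by at least 5 UMIs of 9 lymphocyte genes, numbered 863 and 782, with median depths of 4683 and 4263 UMIs. Plasma protein transcripts outside the rule came to 91.4 and 116 UMIs per member and to 114 and 120 per lymphocyte droplet. Major urinary protein transcripts came to 60.4 and 52.0 against 56.4 and 38.6, P450 transcripts to 9.09 and 9.08 against 11.8 and 10.8, and pericentral transcripts to 3.79 and 3.67 against 3.73 and 3.84. A deep hepatocyte held far more, with 1661 and 1334 plasma protein UMIs. The lymphocyte droplets were deeper than the members, and at the members' own depth limits only 62 and 111 remained, with median depths of 2629 and 2662 UMIs. Members and deep hepatocytes were left out of the lymphocyte droplets. Lymphocyte droplets at the depth of either set therefore fell under the hepatocyte share that both sets had to reach. Their levels were bounded by the rule, and only lymphocyte droplets between these depths were free of it. Levels at the members' depth were not compared. The values above, for lymphocyte droplets of all depths, are bounded in part.

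Metabolic enzymes were compared in the same manner, with lymphocyte droplets of any depth, of which a part was bounded by the rule as above. Amino acid catabolism gave 23.5 and 18.2 UMIs per member against 17.0 and 10.3 per lymphocyte droplet. The urea cycle gave 7.48 and 7.44 against 6.33 and 4.92. Among single genes, Rgn gave 1.48 and 0.98 UMIs per member against 0.74 and 0.36, and Akr1c6 3.02 and 1.76 against 1.58 and 0.76. Cyp3a11 gave 0.18 and 0.38 UMIs per member against 0.21 and 0.52, and Cyp2e1 1.66 and 1.99 against 2.17 and 2.54, so neither was more frequent in a member than in these deeper droplets. Cmss1 gave 3.41 and 2.96 per member and 7.61 and 5.93 per lymphocyte droplet.

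The relative mix of hepatocyte transcripts was compared by a measure chosen after the values were seen. Over 94 and 95 hepatocyte-list genes, those of the rule left out, expressed as shares of their own sum, members and lymphocyte droplets differed by a median of 0.23 and 0.32 on the absolute log2 scale, with 0 and 1 genes past 2-fold. Against the few lymphocyte droplets within the members' depth limits the median was 0.28 and 0.33, with 11 and 8 genes past 2-fold. Members and deep hepatocytes differed by 0.39 and 0.37, with 9 and 10 genes past 2-fold. The shares of free RNA and of cell-bound RNA in a member were not estimated.

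**Figure D5:**
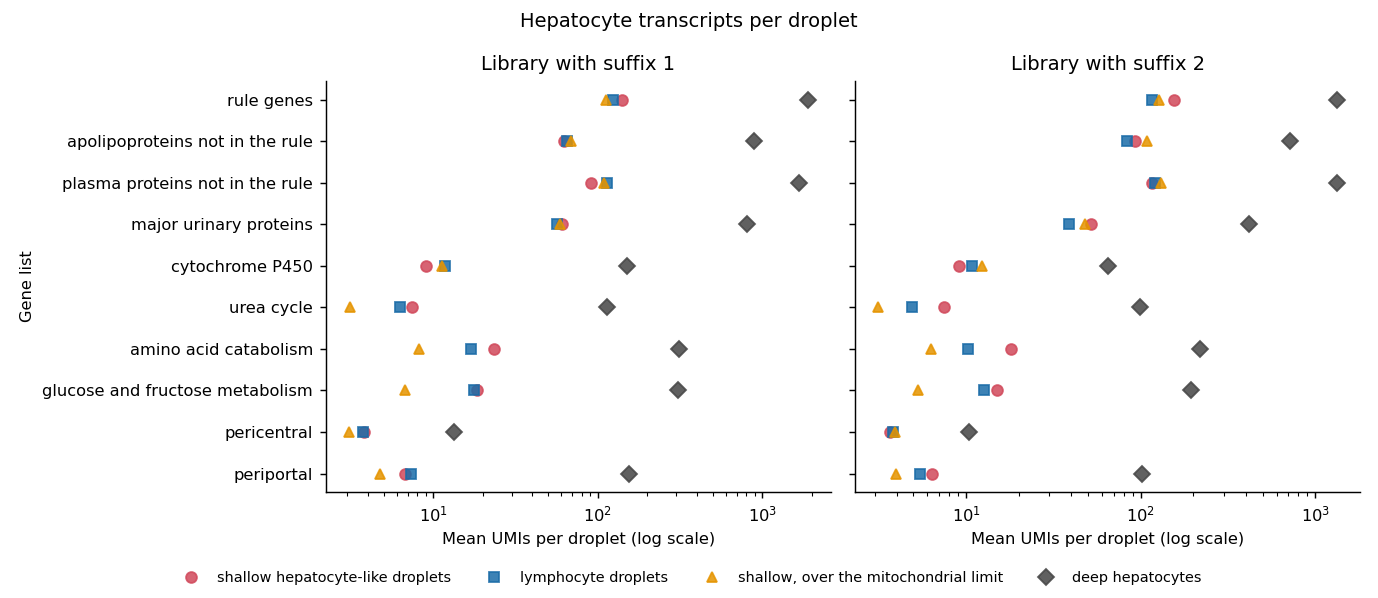
Mean UMIs per droplet of hepatocyte lists (log axis) in members, deep hepatocytes, lymphocyte droplets and shallow droplets over the mitochondrial limit, for each library. Lymphocyte droplets of all depths are drawn, and those at the depth of the members or of the deep hepatocytes were bounded by the rule. In suffix 1 members hold 60.4 major urinary protein UMIs, lymphocyte droplets 56.4 and deep hepatocytes 803.

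With every droplet thinned at random to 500 UMIs, members and deep hepatocytes were of like complexity. Members showed a median of 294 and 276 genes, deep hepatocytes 294 and 293, and lymphocyte droplets 368 and 362. No member fell below that depth. Cyp2e1 was then found in 49.3% (48.2 to 50.4) and 56.4% (54.7 to 58.2) of members, 18.2% and 17.8% of deep hepatocytes, and 20.3% and 25.96% of lymphocyte droplets, whereas unthinned it was in 78.9% and 83.9% of members, 93.9% and 93.4% of deep hepatocytes and 86.0% and 88.9% of lymphocyte droplets. Neat1 was found in 0.729% (0.558 to 0.935) and 1.23% (0.878 to 1.67) of members against 10.1% and 8.46% of deep hepatocytes and 3.94% and 3.33% of lymphocyte droplets; unthinned, it was in 1.85% and 2.73% of members and 68.2% and 53.5% of deep hepatocytes. Since lymphocytes make Neat1 themselves, their share is no background for it.

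Transcripts differed in how evenly they were spread over the members at that depth. The variance of UMIs over droplets divided by their mean, was 1.099 and 1.14 for Cyp2e1, 1.15 and 1.20 for Cmss1 and 1.03 and 1.05 for Cyp3a11, all at means of 1.43 UMIs or fewer, where counting noise sets most of the variance. It was 2.51 and 2.57 for Alb, 3.80 and 4.03 for plasma proteins, 2.84 and 2.44 for major urinary proteins, 2.99 and 2.92 for Gm42418 and 1.92 and 2.43 for Glul. Malat1 was unevenly spread, at 7.005 and 15.1, and haemoglobin most of all, at 194 and 205.

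Glul marked a small subset of members. At least 3 Glul UMIs were found in 205 members of suffix 1 (2.45%) and 20 of suffix 2 (0.613%). Oat, ornithine aminotransferase, which shares the innermost pericentral layer with Glul, held 1404 CPM (1271 to 1546) in those members of suffix 1 against 45.1 CPM (41.1 to 49.5) in members with at most 1 Glul UMI. In suffix 2 it held 3617 CPM (2976 to 4356) against 83.1 CPM (74.6 to 92.4). Rgn held 4808 against 1026 CPM and 4236 against 727 CPM. The periportal Cyp2f2 held 961 against 1219 CPM and 489 against 794 CPM, while Cyp2e1 barely differed, at 1417 against 1294 CPM and 1727 against 1539 CPM. Of the deep hepatocytes, 5 in suffix 1 and 1 in suffix 2 had at least 10 Glul UMIs. At 500 UMIs, Glul was found in 7.19% and 2.91% of members and in 2.09% and 1.15% of lymphocyte droplets, and unthinned in 13.8% and 5.74% of members and 18.2% and 12.5% of lymphocyte droplets.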

How the data were processed

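Both samples of the series were analysed as UMI counts per gene and barcode. The authors aligned and counted the reads with Cell Ranger 7.1.0 (the submitters' processing notes also name STAR 2.7.2a, bcl2fastq 2.20.0 and build mm10) and deposited 1 joint matrix of raw counts. The sources used here do not state whether intronic reads were counted or whether depth was equalised when the libraries were joined. No doublet caller was run.

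Members, deep hepatocytes and lymphocyte droplets were selected per library with Python 3.11.15, numpy 2.4.6, pandas 2.3.3 and scipy 1.17.1. Their UMIs were summed, scaled to CPM and compared as log2 ratios with 3 UMIs added, for genes of at least 100 CPM in either sum. A ratio of at least 2-fold was a size rule and not a test. The scripts were checked on simulated data. Gene positions came from GENCODE M21 (GRCm38), which held 32235 of the 32285 gene identifiers. Droplets were thinned to 500 UMIs with seed 7.

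Members and gene lists were chosen with earlier results of these data known. Named genes were the members of a list, the 10 highest and 10 lowest genes past 2-fold in both libraries by mean log2 ratio, Cebpa and Spp1. The ranking left out the genes of the rule, mitochondrially encoded genes and ribosomal protein genes. Cdk8, Pon1, Akr1c6, Lars2, Insig1, Lpin1 and Nfib, and the subsets by Glul and by a 10% mitochondrial share, were chosen after their values were seen. Some genes that this rule names are not reported here. Alternatives covered the limits of the rule, the scaling, the filter and the subtraction of the mean profile of lymphocyte droplets. Members summed to 10681227 and 4220065 UMIs.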

Additional observations from a re-analysis of the deposited data

Results flagged for a closer look

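Shallow droplets over the mitochondrial limit of 25% were not members and not part of their reference, and they held hepatocyte transcripts. They numbered 3838 in suffix 1 and 5907 in suffix 2, with at least 5% of UMIs from the 10 genes of the rule. Plasma protein transcripts outside the rule came to 74316 CPM in suffix 1 and 76688 CPM in suffix 2, against 19029 and 21667 CPM in the lymphocyte droplets. The droplets over the limit had to reach the hepatocyte share, and lymphocyte droplets that reached it were largely left out. The gap in CPM was thus partly set by the selection. Per droplet the transcripts came to 109 and 131 UMIs, against 114 and 120 in the lymphocyte droplets and 91.4 and 116 in the members. Amino acid catabolism gave 8.24 and 6.33 UMIs per droplet there, against 23.5 and 18.2 in the members. At 500 UMIs such droplets showed a median of 176 and 150 genes.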

How the results depend on the processing

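No paired analysis was possible because each genotype had 1 sample and the libraries were not tied to genotypes, and for the same reason no replicate could be left out. Values are for suffix 1 and then suffix 2. The share of kept barcodes that were members, 72.1% and 53.5% as reported, was 75.35% and 58.37% with a mitochondrial limit of 10%, 75.93% and 66.96% with 50%, 55.51% and 45.15% with a hepatocyte share of at least 10%, 43.70% and 30.44% from 1000 UMIs, and 50.27% and 39.57% without droplets holding UMIs of other cells. In suffix 1, the 71 genes past 2-fold higher became 31 at the 10% mitochondrial limit, 28 at 50%, 38 at a hepatocyte share of 10%, 134 against deep hepatocytes of at least 10000 UMIs, 25 as a mean over droplets, 25 after centring, 32 without mitochondrial genes in the total, 155 at 20 CPM, 1542 with no filter and 510 with the mean profile of the lymphocyte droplets subtracted. The 96 lower genes became 30 at the 10% mitochondrial limit, 43 at a hepatocyte share of 10%, 56 as a mean over droplets, 157 after centring, 180 without mitochondrial genes in the total, 708 at 20 CPM, 1885 with no filter, 27 without droplets holding UMIs of other cells and 602 with that profile subtracted. In suffix 2, the 33 higher genes became 110 at 20 CPM, 3225 with no filter and 310 with that profile subtracted. The 54 lower genes became 8 and 140 at mitochondrial limits of 10% and 50%, 10 at a hepatocyte share of 10%, 93 without mitochondrial genes in the total, 308 at 20 CPM, 727 with no filter, 17 without droplets holding UMIs of other cells and 536 with that profile subtracted. The subtracted profile held the lymphocytes' own RNA, with median log2 ratios of -8.40 and -6.94 left for ribosomal protein genes, and so is no measure of free RNA. The counts with a lower filter or none cover more genes by construction, and for the other changes the cause was not tested. Of the genes lower in both libraries, 10 of 40 stayed so at a hepatocyte share of 10%, as did 15 of the 17 higher genes. List medians of at least 1 on the log2 scale changed sign in 4 cases: the immune and erythroid list of suffix 1 at a mitochondrial limit of 10% (-0.588), the mitochondrially encoded list of suffix 2 at 50% (0.560), and, without droplets holding UMIs of other cells, the pericentral list of suffix 1 (-0.234) and the list of study genes of suffix 1, where Spp1 alone was compared (1.594). In that last setting the reference of suffix 1 was 40 deep hepatocytes. Of the other medians, 574 moved by less than 0.2 on the log2 scale and 251 by more. At the depth of a member, transcripts under about 1 UMI per droplet were found in a fraction of the droplets.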
